A study of Homo sapiens with 4 samples.

Results

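The 10 genes described here encode the subunits of the hypoxia-inducible factors (HIF) and the proteins that sense oxygen for them. They were chosen by symbol: HIF1A, EPAS1, HIF3A, ARNT, ARNT2, VHL, EGLN1, EGLN2, EGLN3 and HIF1AN, all 10 of which were among the 19749 gene rows of the authors' deposited table and among the 14812 that carried an adjusted p-value there. The cells were U87, an established human line labelled as glioblastoma. Cells kept for 24 h with the small molecule YZ129 at 5 µM gave 2 poly(A) RNA libraries, and DMSO, the vehicle, gave 2 more. Both groups are the same single line, so nothing here speaks for other tumours, and in such bulk RNA fewer cells expressing a gene and less of its RNA per cell cannot be told apart. The series title connects the compound with the HSP90, calcineurin and NFAT pathway, and the single comparison asks which transcripts differ between treated and vehicle cells.

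HIF is a pair of an alpha and a beta subunit that binds DNA and switches on genes for glucose use, blood vessel growth and survival when oxygen is scarce. With oxygen present, the prolyl hydroxylases made by EGLN1, EGLN2 and EGLN3 mark the alpha subunit, VHL recognises the mark and a ubiquitin ligase sends the subunit to the proteasome, while the asparaginyl hydroxylase made by HIF1AN blocks the contact of the alpha subunit with its coactivators. EGLN1 and EGLN3 are themselves HIF targets, so that the pathway feeds back on its own sensors. In glioblastoma the pathway is known for its activity around necrotic zones and in stem-like cells. Most of its control acts on protein stability, which transcript levels do not report.

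The authors' deposited table gives, for each gene, a mean level, which is a read count divided by a library size factor and averaged over libraries, and a fold change on the log2 scale with a standard error (SE). All fold changes are the authors' and were moderated towards 0; among the 525 genes with only 2 reads the largest was 0.58 in size. The table has 1 value per gene, and the spread between single libraries was not analysed here for any member. Nothing in the labels says that libraries of a group are separate cultures, and the p-values then measure only a spread between libraries that may be technical. The steps in the mean level show that it was averaged over 8 sets of counts, here called libraries, where 4 libraries are described. It is therefore used only as a guide to abundance. Whether the 8 include further libraries or are parts of the 4 described is not known here. Nor is it known which of the 8 entered the fold changes and errors. A gene counts as called when its adjusted p in the authors' deposited table was under 0.05.

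The table does not state which group is on top of the ratio, and its name has DMSO before the compound. A positive value was read as higher with YZ129, because blocking HSP90 is known to switch cytosolic heat shock genes on. Of 15 tested heat shock and chaperone genes, 7 were called positive and 0 negative in the authors' deposited table. These 15 include HSPD1 (0.02) and HSPE1 (0.04), which are mitochondrial and were not called. Among all tested genes 5.24% were called positive. The highest of the 15 was HSPA6 at 2.64 ± 0.23 (SE), and their median was 0.58. HSPB1 (-0.21) and HSP90AA1 (-0.04) were the 2 with a negative value, and DNAJB1 (0.39) was positive but not called. With the opposite reading every log2 value below keeps its size and its p-value and turns its sign, and every interval given in percent would have to be computed anew from the turned ratio. Of the glioma markers, VIM and CD44 had high mean levels (298885 and 134994) in the authors' deposited table. The glial marker GFAP (52.2) was low, and S100B (1.12) and SOX2 (0.851) were near 0 in the authors' deposited table. Epithelial markers reached at most 18.1 (EPCAM) there, and the blood cell marker with the highest level was CD14, with neither called. Of the 5 tested glioma markers 3 were called lower in the authors' deposited table, NES at -0.59, VIM at -0.46 and CD44 at -0.38. GFAP (-0.56) and CHI3L1 (0.15) were not called there. Of 3 tested neuronal markers SNAP25 (-1.43) was called lower in the authors' deposited table, and MAP2 (-0.04) and SYT1 (0.04) were not called. Among all tested genes 7.64% were called lower. The part of these in the results below was not tested.

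EGLN3, EGLN1 and EPAS1 were lower with YZ129, and the other 7 members were not called. Thus 3 of 10 members (30.0%) were called, all lower, where 12.9% of all tested genes were called (5.24% higher and 7.64% lower). The median log2 fold change of the 10 was -0.22, and that of all tested genes -0.05. The 3 members called sit at unlike levels: EPAS1 is among the most abundant transcripts of the table, EGLN1 is abundant and EGLN3 is scarce.

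**Figure D1:**
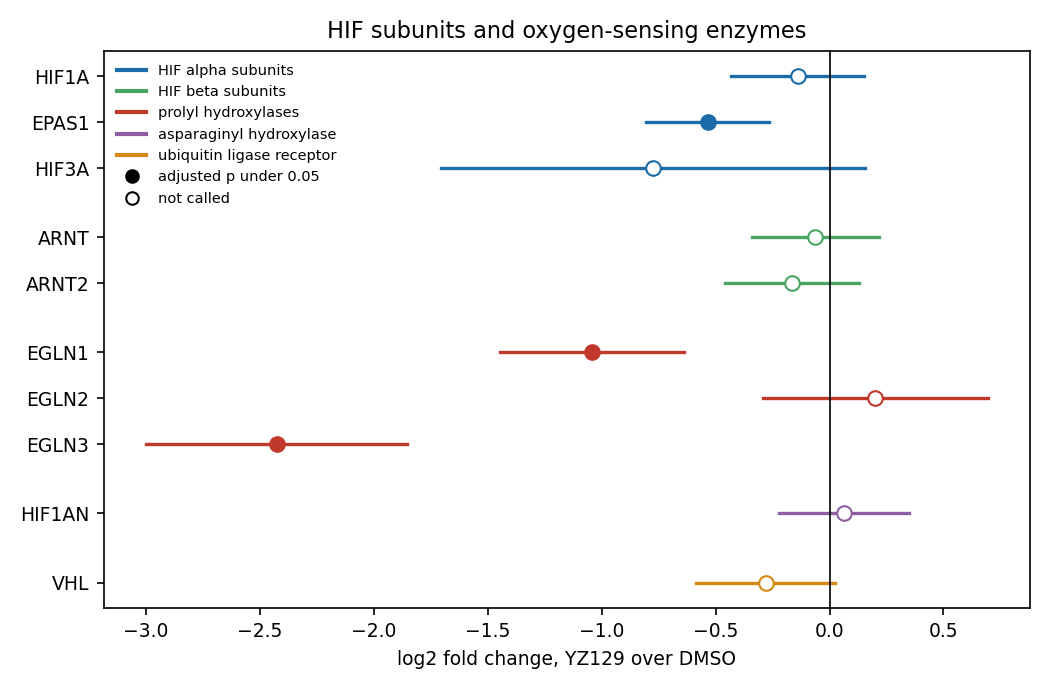
Log2 fold change of each of the 10 genes (YZ129 over DMSO, from the authors' deposited table) with its 95% interval as the horizontal line, grouped by role. Filled circles are genes with an adjusted p under 0.05. EGLN3 (-2.43), EGLN1 (-1.04) and EPAS1 (-0.54) lie left of 0 with their whole interval, and the intervals of the other 7 cross 0.

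The promoters of these 3 genes are shown with that of EGLN2, the prolyl hydroxylase gene that was not called, because the core of the hypoxia response element, the DNA word bound by HIF, is ACGTG or GCGTG. Each window runs from 250 bases before to 50 bases after the gene start and is taken from RefSeq (GRCh38.p14, while the submitters' processing notes name hg19 for the reads). Both words were searched on both strands, where the reverse strand reads CACGT or CACGC, and matches are in capitals. The windows are chr14:33951025-33951324 (minus strand) for EGLN3, chr1:231422238-231422537 (minus strand) for EGLN1, chr2:46297157-46297456 (plus strand) for EPAS1 and chr19:40798941-40799240 (plus strand) for EGLN2, each written 5′ to 3′ along its gene.
EGLN3: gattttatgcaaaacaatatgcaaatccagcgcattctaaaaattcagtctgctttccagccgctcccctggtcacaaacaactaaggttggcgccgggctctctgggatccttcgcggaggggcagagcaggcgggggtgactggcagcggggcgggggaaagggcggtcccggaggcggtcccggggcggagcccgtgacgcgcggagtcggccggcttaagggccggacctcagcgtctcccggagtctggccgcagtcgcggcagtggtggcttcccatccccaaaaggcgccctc
EGLN1: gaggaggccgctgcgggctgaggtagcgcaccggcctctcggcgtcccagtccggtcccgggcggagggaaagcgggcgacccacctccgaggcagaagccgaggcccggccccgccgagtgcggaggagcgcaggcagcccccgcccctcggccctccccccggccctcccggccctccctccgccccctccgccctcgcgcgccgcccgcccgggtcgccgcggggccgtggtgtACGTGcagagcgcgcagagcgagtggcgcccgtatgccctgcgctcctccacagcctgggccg
EPAS1: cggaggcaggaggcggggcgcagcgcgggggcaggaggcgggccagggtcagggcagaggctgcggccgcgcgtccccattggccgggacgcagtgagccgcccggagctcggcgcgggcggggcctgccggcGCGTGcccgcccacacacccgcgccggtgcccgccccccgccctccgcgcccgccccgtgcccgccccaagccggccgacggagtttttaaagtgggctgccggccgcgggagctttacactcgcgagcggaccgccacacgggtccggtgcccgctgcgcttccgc
EGLN2: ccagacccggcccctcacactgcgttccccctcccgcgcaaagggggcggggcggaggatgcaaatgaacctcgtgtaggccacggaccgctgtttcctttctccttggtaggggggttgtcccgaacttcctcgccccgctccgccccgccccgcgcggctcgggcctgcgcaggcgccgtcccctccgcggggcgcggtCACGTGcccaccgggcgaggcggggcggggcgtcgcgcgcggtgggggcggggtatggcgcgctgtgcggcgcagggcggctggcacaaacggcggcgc

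EGLN1 has 1 match, an ACGTG that begins 13 bases before the start, and EPAS1 has 1, a GCGTG that begins 117 bases before it. EGLN2 has a CACGTG, in which the words of the 2 strands overlap, beginning 49 bases before the start. The EGLN3 window holds neither word on either strand. A window at the gene start was found for 8 of the 10 members, and 5 of these 8 hold a match. The members have 12 windows in all, and those at other starts, of HIF1A, HIF3A and EGLN2, hold none. HIF1A has 1 and HIF3A has 3, and the windows of ARNT and HIF1AN hold none. ARNT2 and VHL had no entry. Among all 35116 RefSeq windows, 48.4% hold a match, and 64.9% of the 16447 with a GC content of at least 60%. These shares include windows at other starts, so the 5 of 8 is not a like share. The EGLN3 window has a GC content of 65.0% and that of EGLN1 80.0%. The word is thus common. It stands in the window of EGLN2, which was not called, and not in that of EGLN3, which had the lowest fold change of the 10. Sequence outside these windows of 300 bases was not searched, so they do not show whether a gene has such an element elsewhere. Binding by HIF was not tested.

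Among the alpha subunits, EPAS1 (HIF-2 alpha) was lower with YZ129 and HIF1A (HIF-1 alpha) was not called. EPAS1 had a log2 fold change of -0.54 ± 0.14 (SE) in the authors' deposited table, 1.45-fold lower, with a 95% interval of -0.81 to -0.26 on the log2 scale (adjusted p = 0.0021, the authors' DESeq2-type Wald test with Benjamini-Hochberg adjustment). Highly expressed genes as a class sat slightly below 0: the 127 tested genes within 1.25-fold of the level of EPAS1 had a median of -0.19, and 18.1% of them were called. When each gene was set against the median of its decile of level, EPAS1 stood at -0.38 and its call was lost (recomputed adjusted p = 0.052). HIF1A had -0.14 ± 0.15 in the authors' deposited table (adjusted p = 0.61), and the 95% interval of its change ran from -25.8% to 11.1%. Against its decile of level the HIF1A value was 0.017, so its sign depended on that choice.

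The difference between the pair, EPAS1 minus HIF1A, was -0.40 with a 95% interval of -0.79 to 0.00 on the log2 scale, treating the errors as independent. The upper end of that interval lies just past 0, so a call in one and none in the other is not shown to be a difference between them. HIF3A, whose splice forms include some that restrain the other alpha subunits, had -0.77 ± 0.47 (adjusted p = 0.31) in the authors' deposited table. Its mean level of 25.5 corresponds to about 204 normalised reads over all 8 libraries, and its interval, from -69.3% to 11.4%, leaves the size undetermined at this depth. The 593 tested genes of like level had a median of 0.32, and 2.19% of them had a lower value than HIF3A.

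The beta subunits showed no call. ARNT, the shared partner of the alpha subunits, had -0.06 ± 0.14 (adjusted p = 0.83) and ARNT2, its mainly neural relative, -0.16 ± 0.15 (adjusted p = 0.54) in the authors' deposited table. The 95% intervals of the change ran from -21.1% to 16.2% for ARNT and from -27.2% to 9.34% for ARNT2. ARNT2 minus ARNT was -0.10, with an interval of -0.51 to 0.30. Against its decile of level the ARNT value was 0.043, which turns its sign.

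The largest changes were in the prolyl hydroxylases, and they differed within the family. EGLN3 (PHD3) was 5.38-fold lower with YZ129, at -2.43 ± 0.29 (SE), with a 95% interval of -3.00 to -1.85 on the log2 scale and an adjusted p of 2.1e-14 in the authors' deposited table. It ranked 6 from the lowest fold change among the 14812 tested genes. Its mean level was 95.3, or about 762 normalised reads over the 8 libraries, and its value was the lowest of the 556 tested genes within 1.25-fold of that level.

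EGLN1 (PHD2), which is regarded as the main oxygen sensor of most cells, was 2.06-fold lower (interval 1.56 to 2.73), at -1.04 ± 0.21 and an adjusted p of 1.7e-05 in the authors' deposited table. It ranked 182 from the lowest fold change among all tested genes, with a mean level of 5606. EGLN2 (PHD1), which is not known as a HIF target, had 0.20 ± 0.25 (adjusted p = 0.67) in the authors' deposited table, with an interval from -18.4% to 61.8%. Both called hydroxylases kept their direction and their call under each of the 6 alternative settings tried.

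Of the 3 pairs in the family none had an interval that reached 0. EGLN3 minus EGLN1 was -1.38 (95% interval -2.08 to -0.68), EGLN3 minus EGLN2 was -2.63 (-3.38 to -1.87) and EGLN1 minus EGLN2 was -1.24 (-1.88 to -0.61), all on the log2 scale. These intervals treat the errors of the genes as independent, although all genes were read in the same libraries. A read-through transcript over EGLN2, RAB4B-EGLN2, had a mean level of 2.59 and the upstream gene RAB4B one of 1.12 in the authors' deposited table, against 145 for EGLN2, and neither carried an adjusted p. Reads that fit both EGLN2 and the read-through may have been assigned to either or dropped, and how reads were counted is not stated in the labels.

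Of the remaining oxygen-pathway proteins, neither HIF1AN nor VHL was called. HIF1AN (the asparaginyl hydroxylase FIH) had 0.06 ± 0.15 (adjusted p = 0.83) in the authors' deposited table, with a 95% interval from -14.2% to 27.5%. VHL had -0.28 ± 0.16 (adjusted p = 0.25) there, with an interval from -33.4% to 1.76%, which lies almost wholly below 0. HIF1A-AS2, an antisense RNA of HIF1A, had a mean level of 14.4 and 0.51 ± 0.62 (adjusted p = 0.66) in the authors' deposited table. Without strand information, reads from HIF1A and its antisense partner cannot be told apart where they overlap. How such reads were counted is not stated. The mean level of 14.4 therefore does not show how many of the 23339 reads of HIF1A are antisense.

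Levels between genes were compared per kb of exon (the union of exons in the GENCODE basic annotation of GRCh38). HIF1A (5484 normalised reads per kb) and EPAS1 (5148) were the most abundant members, close to each other. VHL followed with 811 and EGLN1 with 790 per kb, then ARNT with 472, HIF1AN with 359 and ARNT2 with 247 per kb. EGLN2 (48.1 per kb), EGLN3 (19.6) and HIF3A (3.97) had the lowest values. In these counted reads EGLN1 stood more than an order of magnitude above both of its paralogs. How reads shared by EGLN2 and the read-through RAB4B-EGLN2 were counted is not stated, so the value of EGLN2 may be too low. The mean carries no spread over libraries, so whether the close neighbours HIF1A and EPAS1, or VHL and EGLN1, differ in level was not tested. It is also pooled over the libraries and not split by group. The order of these genes in vehicle cells alone is therefore not shown, and EGLN1 and EPAS1 were lower with YZ129. The exon lengths are from another annotation than the one used for counting.

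**Figure D2:**
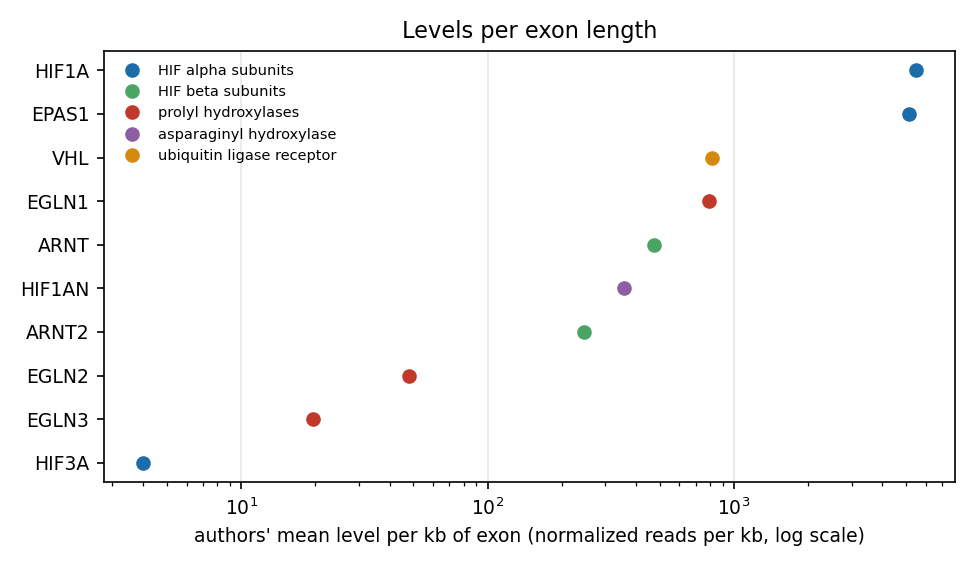
The authors' mean level of each gene divided by its exon length, in normalised reads per kb on a log axis, ordered from high to low and coloured by role. The mean is pooled over libraries and not split by group. HIF1A (5484) and EPAS1 (5148) lie at the top, 5 genes lie between 247 and 811, and EGLN2 (48.1), EGLN3 (19.6) and HIF3A (3.97) lie at the bottom.

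**Figure D3:**
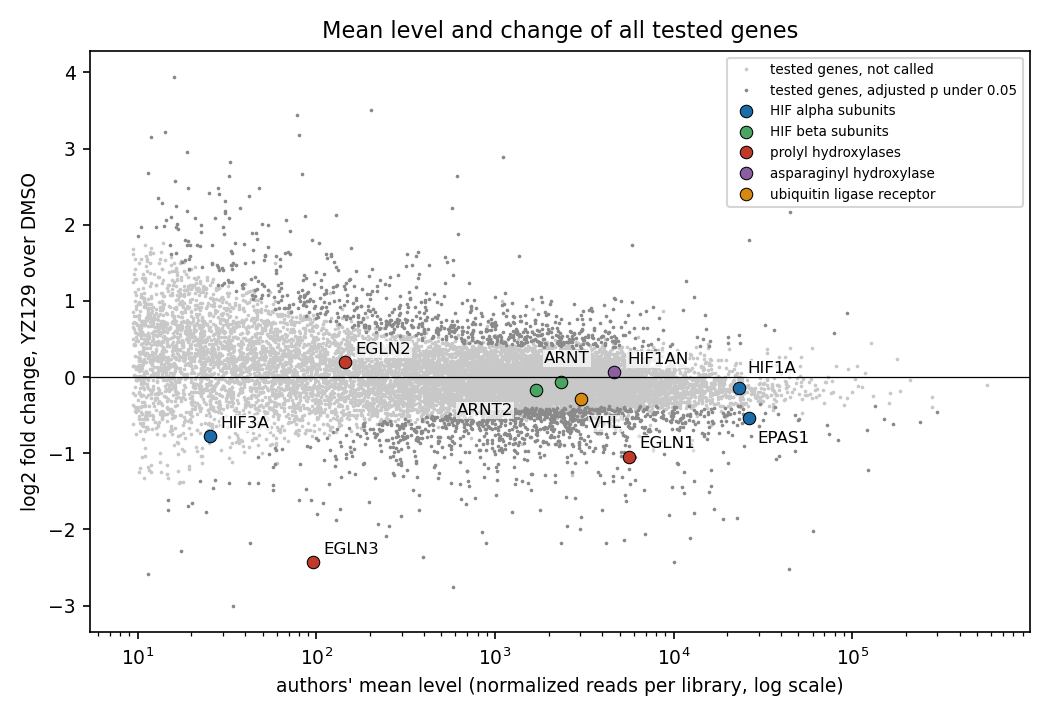
Log2 fold change (YZ129 over DMSO) against the authors' mean level in normalised reads per library on a log axis, for all 14812 tested genes (grey, darker where the adjusted p was under 0.05) and the 10 members (coloured by role). EGLN3 lies at the lower edge of the cloud at a mean level of 95.3 and EPAS1 at the right at 26593, where the cloud as a whole sits slightly below 0.

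Over all tested genes, 776 of those called were higher and 1132 lower, so that 40.7% of calls were higher. After centring on the median of all tested genes 51.9% of calls were higher, and 53.4% after centring by decile of level, so which direction held more calls depended on this choice. With the opposite reading of the ratio these are the shares of calls that were lower. EGLN3 and EGLN1 stood at -2.38 and -0.99 when centred on all tested genes, and at -2.48 and -0.93 when centred by level, and were called in both settings.

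The partners of VHL in its ubiquitin ligase gave 1 call among 4, or 25.0% against 12.9% of all tested genes. RBX1, the RING subunit, was lower at -0.44 ± 0.14 (adjusted p = 0.024) in the authors' deposited table. The scaffold CUL2 (-0.23 ± 0.14), elongin C (listed as TCEB1, -0.02 ± 0.15) and elongin B (listed as TCEB2, -0.16 ± 0.19) were not called in the authors' deposited table. The RBX1 call was lost in both centred settings. Proteins that act on the stability of HIF alpha, the hydroxylases or VHL gave 1 call among 17, or 5.88% against 12.9% of all tested genes, with a median of -0.13. That call was SENP1, a SUMO protease that acts on HIF1A, at -0.48 ± 0.15 (adjusted p = 0.014) in the authors' deposited table. The SENP1 call was lost when genes were centred by level, and the list's only call was then FBXW7, a ubiquitin ligase subunit that acts on HIF1A, with a positive value. FBXW7, named after its value was seen, had 0.42 ± 0.16 (adjusted p = 0.061) in the authors' deposited table. HSP90AA1, a chaperone of the HIF1A protein and the most abundant of this list, had -0.04 ± 0.14 (adjusted p = 0.91) in the authors' deposited table.

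Among coactivators and CITED proteins 1 of 7 tested genes was called, 14.3% against 12.9% of all tested genes, with a median of 0.21. CREBBP, the acetyltransferase CBP that binds the transactivation domain of HIF alpha, was 1.53-fold higher at 0.61 ± 0.16 (adjusted p = 0.0023) in the authors' deposited table. Its paralog EP300, the most abundant of the list, had 0.41 ± 0.16 (adjusted p = 0.082) there and was not called; it was called when genes were centred, on all tested genes or by level. CITED4, the eighth gene of this list, had no row.

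Other factors of the bHLH-PAS family, to which all HIF subunits belong, gave 2 calls among 9 tested of 11, both lower: the clock factors ARNTL2 (-0.57 ± 0.16, adjusted p = 0.0052) and NPAS2 (-0.39 ± 0.14, adjusted p = 0.047) in the authors' deposited table. These calls were 22.2% of the tested genes of the list, where 12.9% of all tested genes were called. Neither call survived centring by level. Enzymes that set the supply of 2-oxoglutarate, the cosubstrate of the hydroxylases, or of succinate and fumarate, which compete with it, gave 3 calls among 10 and all were lower. The isocitrate dehydrogenases IDH2 (-0.89 ± 0.16, adjusted p = 3.0e-06) and IDH1 (-0.56 ± 0.14, adjusted p = 0.0015), which make 2-oxoglutarate, and the succinate dehydrogenase subunit SDHA (-0.58 ± 0.17, adjusted p = 0.0071) were those called in the authors' deposited table. The share of 30.0% stands beside 12.9% of all tested genes. Other dioxygenases that respond to oxygen held 0 called genes of 3 by the authors' DESeq2-type test, and 0 at an unadjusted p under 0.05. The cysteamine dioxygenase ADO (-0.23 ± 0.19) and the histone demethylases KDM5A (-0.11 ± 0.14) and KDM6A (0.30 ± 0.17) were those 3 in the authors' deposited table.

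Genes known as targets of HIF were lower in the lists that hold HIF-1 targets, and mostly not called in the list of genes that prefer HIF-2. Of 9 targets that prefer HIF-1, all 9 were lower (median -0.98), with BNIP3 (-2.11 ± 0.14), CA9 (-2.14 ± 0.15) and the pyruvate dehydrogenase kinase PDK1 (-1.59 ± 0.17, adjusted p = 3.8e-19) leading by adjusted p in the authors' deposited table. LDHA, the lactate dehydrogenase subunit and the most abundant of them, had -1.22 ± 0.14 (adjusted p = 9.4e-16) there. Of 10 targets of both factors, all 10 were lower (median -0.96), with the glucose transporter SLC2A1 (-1.81 ± 0.14, adjusted p = 1.2e-37), NDRG1 (-1.84 ± 0.14) and the vessel growth factor VEGFA (-1.04 ± 0.13), the most abundant of them, leading in the authors' deposited table. In both lists every gene was called lower, where 7.64% of all tested genes were. These lists were chosen with earlier results of these data known, so their counts are a description only.

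Of the 9 genes that prefer HIF-2, 7 were tested and 1 was called, 14.3% against 12.9% of all tested genes, with a median of -0.11. The growth factor TGFA was lower at -0.90 ± 0.14 (adjusted p = 3.9e-09) in the authors' deposited table. The preference of each gene for a factor is known from other cell types, and no test of one list against another was made. EGLN3 and EGLN1, as HIF targets themselves, can be set beside these lists: the value of EGLN3 lay below the lowest target of both lists with HIF-1 targets, which was CA9 at -2.14 in the authors' deposited table, and that of EGLN1 lay among them, close to both medians. Because the lists were chosen with earlier results of these data known, this placement too is a description only. Whether HIF activity differed between the groups was not tested.

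**Figure D4:**
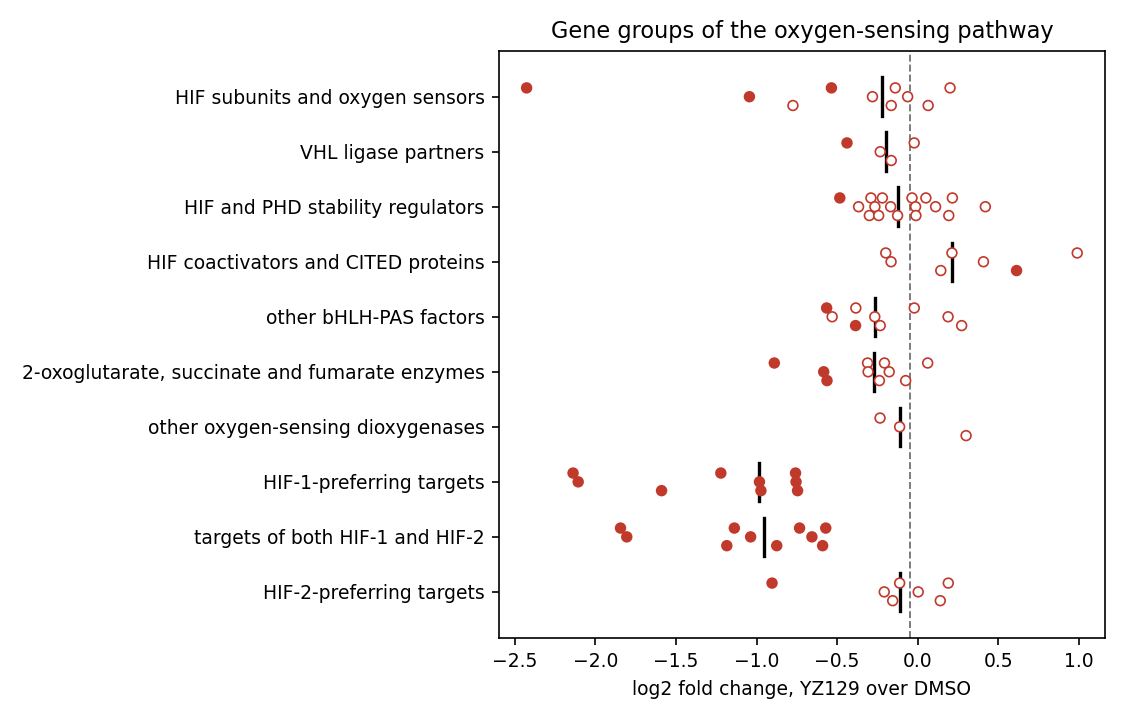
Log2 fold change (YZ129 over DMSO) of each tested gene in the groups named at the left. Filled points had an adjusted p under 0.05, black bars are medians and the dashed line is the median of all tested genes (-0.05); all genes of the HIF-1 and shared target groups (9 and 10) are filled and lie below -0.5.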

How the data were processed

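Poly(A) RNA of 4 libraries (2 YZ129, 2 DMSO, grouped by the treatment label) was sequenced. The build hg19 and the tools Cuffdiff, Cufflinks 2.2.1 and TopHat2 2.0.12 appear in the submitters' processing notes, without their roles. The read counter and the gene models are not given in the sources. Per the file headers, the columns match DESeq2 output. The authors' mean level is a signal (normalised read counts), and the authors' other columns are a log2 fold change, its SE, a Wald score and its p-value, raw and adjusted. The deposited score equalled the fold change over its SE, and recomputing Benjamini-Hochberg values over 14812 genes gave the deposited adjusted p; 4937 genes, all with a mean level of at most 9.43, have none.

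With Python 3.11.15, pandas 2.3.3 and scipy 1.17.1, calls were counted, 95% normal intervals and differences between paralogs computed, and settings varied. For 1153 of 1153 genes with 2 to 4 reads the mean level was a whole-read sum over 8 libraries (tolerance 1e-07). No count depth per sample, interval on counts or new test per gene could be computed. The recentring and the read steps were tested on simulated data. The simulated shift was the same at all levels, so centring by level was not tested against a shift that varies with level. Positive values were read as higher with YZ129, from the heat shock genes. Genes were named by rule: all members, every gene of lists of at most 4 genes, and from longer lists the 3 called genes with the smallest adjusted p per direction and the most abundant gene; 1 gene so named is not reported here. Members and lists were chosen with earlier results of these data known.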

Additional observations from a re-analysis of the deposited data

How the results depend on the processing

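The count of 3 members called, all lower, was 2 when genes were centred by level decile and 3 under the other 5 alternatives, and EGLN3 and EGLN1 were called in each. EPAS1 lost its call when centred by level decile (-0.38), and in that setting the values of HIF1A (0.017) and ARNT (0.043), which were not called, changed sign; the cause was not tested. Among the shorter lists, the 1 call among VHL ligase partners became 0 at an adjusted p under 0.01, for changes of at least 0.5 and in both centred settings. The 1 call among stability regulators became 0 at an adjusted p under 0.01 and for changes of at least 0.5, and 2 (SENP1 and FBXW7) at an adjusted p under 0.1 and when centred on all tested genes. When centred by level decile it was 1, but FBXW7 (positive) in place of SENP1 (negative). The 1 call among coactivators became 2 at an adjusted p under 0.1 and in both centred settings. The 2 calls among bHLH-PAS factors became 1 at an adjusted p under 0.01, for changes of at least 0.5, when centred on all tested genes and without the filter on low levels, and 0 when centred by level decile. All other list counts stayed within 1.5 times. Over all genes, 1908 calls compare with 1144 at an adjusted p under 0.01, and 1737 without the filter. No paired analysis was possible because the table holds 1 fold change per gene and no values per library; for the same reason leaving out a replicate, another count tool and another normalisation were not run. Depth limits the scarce members most: the SE was 0.47 for HIF3A, 0.29 for EGLN3 and 0.25 for EGLN2, against 0.14 to 0.21 for the other 7.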

Other observations

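EGLN1 had a larger error than its level would give. Its SE of 0.21 was above that of 91.7% of the 1000 tested genes within 1.25-fold of its mean level, whose median SE was 0.15, while the SE of the other 9 members lay between the 12.9 and 59.2 percentile of genes of like level. What lies behind this was not tested.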
